A study of Mus musculus with 14 samples.

Results

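Ribosome assembly factors are the proteins that process, modify and fold ribosomal RNA (rRNA) on its way to finished ribosomal subunits, without staying in the ribosome themselves. They were taken here as a list of 51 mouse gene symbols, chosen by name and not by their values, though with earlier results of these data known. The count table held 50 of the 51 among its 24015 gene symbols, and all 50 passed the filter on low counts. Noc2l was not analysed here.

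The ribosome is built in the nucleolus, where RNA polymerase I transcribes a long precursor that is cut and modified into the mature rRNAs. Small nucleolar ribonucleoproteins (snoRNPs) guide the chemical modification of the precursor, a large early particle called the small-subunit (SSU) processome starts the small subunit, and separate sets of factors carry both subunits through to export and final trimming. Making ribosomes is among the most costly activities of a growing cell, the transcription factor Myc is a known driver of these genes, and SirT7 is a nucleolar sirtuin, a NAD-dependent enzyme, that is known to act on fibrillarin, Rrp9, nucleophosmin and Ddx21.

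The study sequenced total RNA of mouse embryonic fibroblasts (MEFs), primary connective-tissue cells, to ask how SirT7 bears on the answer to glucose starvation. All cells were of strain 129s2, came from embryos of day 14.5, were at passages 3 to 4, and spent 18 h in their medium before harvest. The 4 groups were SirT7-/- cells without glucose (KO-GS, n = 3), SirT7-/- cells in normal medium (KO-NT, n = 4), wild-type cells without glucose (WT-GS, n = 3) and wild-type cells in normal medium (WT-NT, n = 4). The labels do not say whether replicates were separate embryos or cultures, so p-values speak only to sample-to-sample spread, which may be technical.

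Levels are given as normalised CPM, counts scaled to the library total; for a gene they can be set side by side between libraries, but genes cannot be compared by them, since they are not divided by gene length. A change is a log2 ratio with its standard error (SE), tested by edgeR's quasi-likelihood test with Benjamini-Hochberg adjustment over 15666 genes. A gene is called, and said to have risen or fallen, at an adjusted p under 0.05. In bulk RNA, fewer cells of a kind and less RNA per cell cannot be told apart, and a rise in CPM is a rise in share of the RNA counted.

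Total counts per library lay between 59788270 and 91607861. Sirt7 itself was at 0.29 to 1.45 CPM in the 7 SirT7-/- libraries and at 17.4 to 22.9 CPM in the 7 wild-type libraries. A pair of libraries stood with the other medium. Hspa5, a chaperone of the endoplasmic reticulum induced by starvation, was at 6061, 5701 and 1059 CPM in KO-GS 1 to 3, at 1556, 1464, 1490 and 6249 CPM in KO-NT 1 to 4, at 6415 to 7546 CPM in WT-GS and at 1037 to 1465 CPM in WT-NT. Txnip, Derl3 and Dnajb9 put the libraries labelled KO-GS 3 and KO-NT 4 on the same sides as Hspa5 did. Counts and medians that use these 2 libraries are therefore given with and without them, and values of single genes in part. Summed fibroblast markers (10 genes) were at 25356 to 42404 CPM in KO-GS, 27661 to 51184 CPM in KO-NT, 24282 to 26681 CPM in WT-GS and 42876 to 50232 CPM in WT-NT. Macrophage markers (14 genes) summed to 121 to 1121 CPM in KO-GS, 429 to 760.2 CPM in KO-NT, 13.5 to 383 CPM in WT-GS and 322 to 2143 CPM in WT-NT, and endothelial and epithelial markers (4 genes each) summed to at most 21.7 CPM in every library.

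The Myc-Max dimer binds the E-box CACGTG, so the promoters were read for it. RefSeq promoter windows (assembly GRCm38.p6, 250 bases before to 50 after each gene's start) were matched for 43 of the 50 genes, with 46 windows. CACGTG, which reads alike on both strands, stood in the windows of 10 of the 43 genes. It was in 21.7% of the 46 windows and in 7.15% of the 32851 windows of all genes. The 10 sites are shown because 8 of them belong to factors that rose in starved wild-type cells; Mybbp1a and Tsr1 were not called there. Each line gives up to 12 bases on either side of the E-box, on the gene's strand, 5′ to 3′, with the E-box in capitals.
Imp4: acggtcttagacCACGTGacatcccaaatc
Nop2: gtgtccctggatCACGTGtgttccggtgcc
Utp18: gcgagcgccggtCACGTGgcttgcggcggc
Pes1: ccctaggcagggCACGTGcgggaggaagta
Wdr43: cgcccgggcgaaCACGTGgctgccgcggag
Tsr1: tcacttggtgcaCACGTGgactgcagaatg
Ltv1: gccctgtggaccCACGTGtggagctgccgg
Pno1: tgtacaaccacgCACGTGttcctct
Utp20: cggcactaactaCACGTGaggaaaa
Mybbp1a: gtcttctgagccCACGTGtttg

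On the plus strand these windows lie at chr1:34439696-34439725 (Imp4), chr6:125131811-125131840 (Nop2), chr11:3963965-3963994 (Pes1), chr17:71616220-71616249 (Wdr43), chr11:74898092-74898121 (Tsr1) and chr11:72441355-72441376 (Mybbp1a). On the minus strand they lie at chr11:93885769-93885798 (Utp18), chr10:13193092-13193121 (Ltv1), chr11:17211540-17211564 (Pno1) and chr10:88826765-88826789 (Utp20). Counted from the gene's start, the E-box began at position -121 in Imp4, -60 in Nop2 and -20 in Utp18. In the other 7 genes it lay within the first transcribed bases, from position 3 in Pes1 to position 41 in Mybbp1a, counted from 1 at the start. Of the 19 factors with a window that rose in starved wild-type cells, 8 held the E-box, against 2 of the other 24. Of these 2, Mybbp1a was called higher once WT-NT 4 was left out. The same split was not made over all genes, so it has no background here. These counts describe letters and not binding, and the part of the E-box in the rise was not tested.

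Among the other motifs searched on both strands, the ETS-type core CCGGAA was in 39.1% of the 46 windows and 14.9% of all windows, and the GC-box core GGCGGG in 54.3% and 35.3%. CCAAT was in 39.1% of the 46 windows and 37.4% of all. CATGTG was in 19.6% and 14.2%, and the general E-box CANNTG, which includes CACGTG and CATGTG, in 65.2% and 72.3%. CTTTTC was in 21.7% and 21.8%, and TCTTTCC in 13.0% and 8.29%. CCGGAA was held by 7 of the 19 risen factors and 11 of the other 24, again without a split over all genes. The promoter of Utp18, which rose in starved wild-type cells under every setting tried, holds several of these motifs. Its 250 bases before the start (chr11:93885767-93886016, minus strand) are shown with 5 sites in capitals, and other CANNTG sites are left in lower case. The first is CCAAT at position -176 and the next CCGGAA at -106. Then follow CATGTG on the opposite strand at -76, the GC-box core GGCGGG at -69 and last the E-box CACGTG at -20.
Utp18 promoter: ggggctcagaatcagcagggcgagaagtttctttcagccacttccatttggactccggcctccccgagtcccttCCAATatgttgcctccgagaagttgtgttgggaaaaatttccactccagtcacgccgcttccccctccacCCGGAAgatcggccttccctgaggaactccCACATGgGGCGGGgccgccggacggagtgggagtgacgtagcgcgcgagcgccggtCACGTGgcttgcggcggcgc

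In wild-type cells without glucose, many assembly factors rose, by up to 1.89-fold in Npm1. None of the 7 snoRNP core proteins was called. Of the 50 genes, 21 rose and 1, Bop1, fell in WT-GS against WT-NT. Across all genes tested, 32.6% were called in this comparison, 17.2% as higher and 15.4% as lower. The median change of the 50 was 0.29, against -0.022 over all genes. In 29 of the 50 genes every WT-GS library lay above every WT-NT library, and in Bop1 every WT-GS library lay below; over all genes these shares were 22.4% and 22.1%. The heat map shows the block of higher values in WT-GS and its exceptions.

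**Figure D1:**
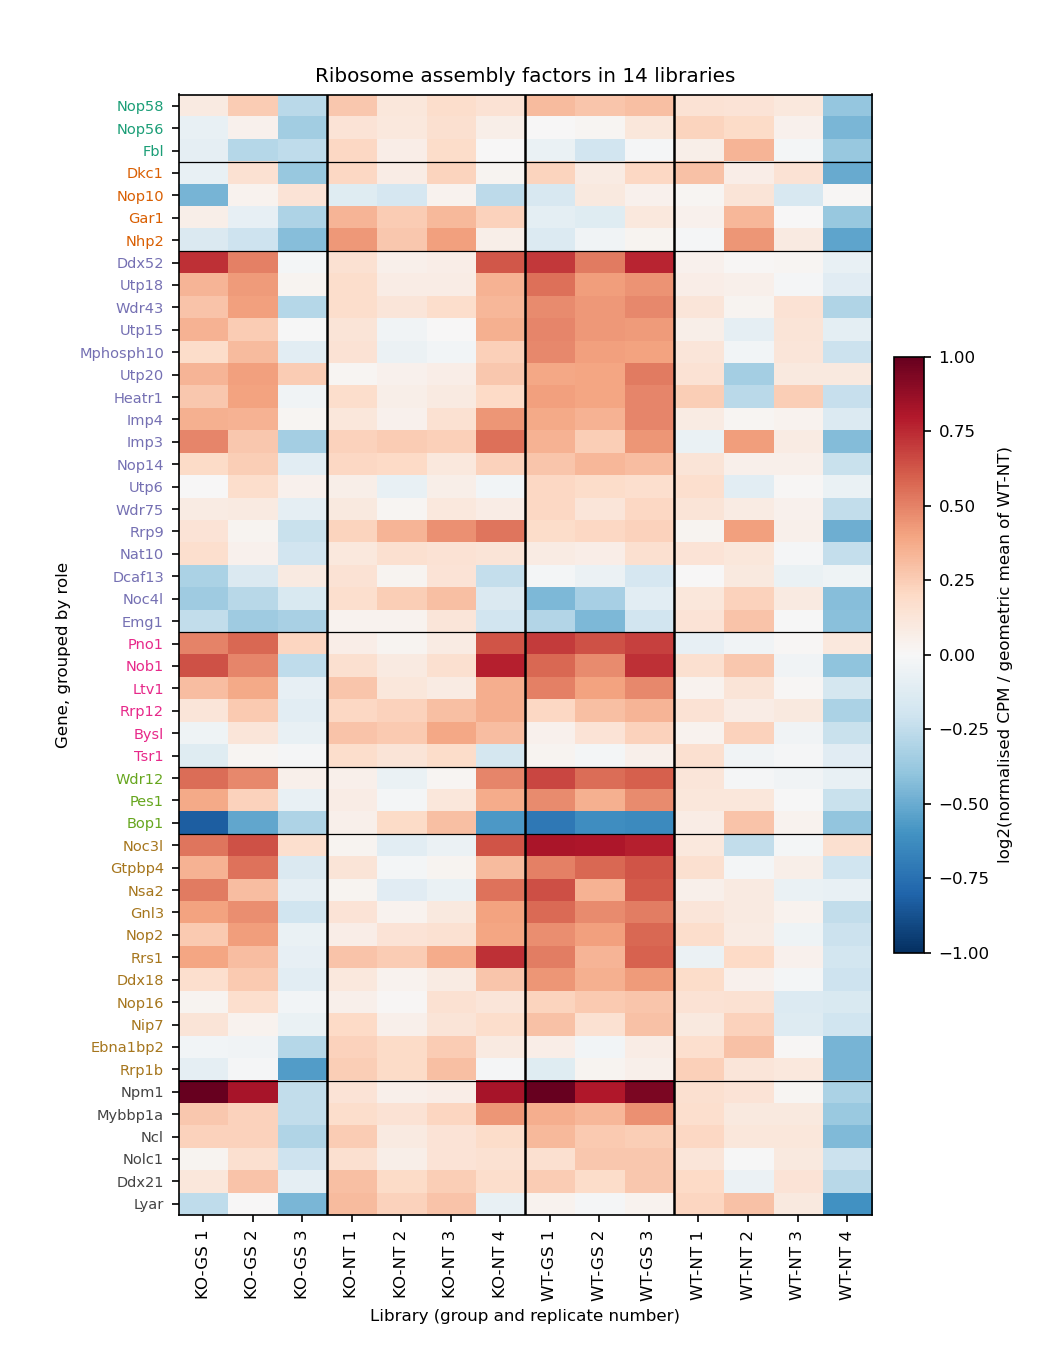
Level of each of the 50 assembly factors (rows, grouped and coloured by role, ordered by their change in wild-type cells) in each of the 14 libraries (columns), as the log2 ratio to the geometric mean of WT-NT; the colour scale ends at -1 and 1. WT-GS columns are red for most factors outside the top 2 groups, Bop1 is blue in WT-GS, KO-GS 3 and WT-NT 4 are the palest or bluest columns of their groups, and KO-NT 4 is the reddest of its group in Npm1, Noc3l and Pno1.

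The snoRNP core proteins came out without a call. Box C/D snoRNPs methylate rRNA, and none of their 3 core proteins was called: Fbl (fibrillarin, the methyltransferase) changed by -0.10 (SE 0.16), Nop56 by 0.038 (SE 0.16) and Nop58 by 0.30 (SE 0.14, adjusted p = 0.139 by edgeR). Fbl was at 95.1, 87.5 and 98.7 CPM in WT-GS 1 to 3, against 104, 126, 98.2 and 76.5 CPM in WT-NT 1 to 4. The groups overlapped, with WT-NT 4 the lowest of all 7. Without WT-NT 4 the change of Fbl was -0.24, still not called. Box H/ACA snoRNPs turn uridine into pseudouridine, and none of their 4 proteins was called: the enzyme Dkc1 changed by 0.16 (SE 0.18), and Gar1, Nhp2 and Nop10 by -0.073 to 0.010.

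In the SSU processome, 8 of 17 members rose and none fell, with a median change of 0.33. The largest rise was in Ddx52, the counterpart of the yeast RNA helicase Rok1. It was at 81.0, 70.9 and 83.9 CPM in WT-GS 1 to 3, against 51.03, 49.9, 50.3 and 47.0 CPM in WT-NT 1 to 4. Every starved library lay well above every library in normal medium. Its change was 0.68 (SE 0.081, edgeR adjusted p = 0.00108). Utp15 and Wdr43, members of the subcomplex that binds the precursor first, rose by 0.46 (SE 0.085) and 0.47 (SE 0.12). Utp18 of the next subcomplex rose by 0.49 (SE 0.083), Mphosph10 and its partner Imp4 by 0.44 (SE 0.10) and 0.42 (SE 0.085), the large scaffold protein Utp20 by 0.44 (SE 0.12) and Nop14 by 0.32 (SE 0.10).

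Other parts of the same particle did not follow. Noc4l and Emg1 work with Nop14 in yeast, and Emg1 is an rRNA methyltransferase. Noc4l was at 23.1, 25.0 and 29.3 CPM in WT-GS 1 to 3, against 34.0, 36.9, 33.4 and 23.5 CPM in WT-NT 1 to 4, a change of -0.29 (SE 0.17, edgeR adjusted p = 0.224). Emg1 changed by -0.32 (SE 0.17, adjusted p = 0.183). Without WT-NT 4, which overlapped WT-GS in both genes, Noc4l and Emg1 changed by -0.44 and -0.47 and were called. Rrp9, the protein that marks the U3 snoRNP, was at 36.3, 36.9 and 37.5 CPM in WT-GS 1 to 3, against 32.6, 42.4, 33.0 and 22.8 CPM in WT-NT 1 to 4. WT-NT 2 lay above and the other WT-NT libraries below all starved libraries, and the change of 0.19 (SE 0.19) was not called.

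In the late small-subunit group, 3 of 6 rose. Pno1 holds the end of the small-subunit rRNA until the nuclease Nob1 cuts it. Pno1 was at 77.3, 74.2 and 76.6 CPM in WT-GS 1 to 3, against 45.2, 46.6, 48.0 and 51.4 CPM in WT-NT 1 to 4. Its replicates lay close together and the groups far apart, and its change of 0.69 (SE 0.070) had the smallest adjusted p of the 50 (0.00057, edgeR). Nob1 was at 61.7, 57.5 and 68.5 CPM in WT-GS 1 to 3, against 46.3, 49.99, 40.4 and 31.3 CPM in WT-NT 1 to 4, a rise of 0.59 (SE 0.16, edgeR adjusted p = 0.0298). The Nob1 groups did not overlap, but its call was lost without WT-GS 1, 2 or 3 (edgeR adjusted p = 0.0901, 0.0542 and 0.104) and without WT-NT 3 (0.0755). Ltv1, an export factor of the small subunit, rose by 0.47 (SE 0.093). Rrp12, Bysl and Tsr1 changed by 0.29, 0.14 and 0.033 without a call.

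The PeBoW complex, which is needed for the large-subunit rRNAs, split. Its 3 proteins bind each other, yet Wdr12 and Pes1 rose while Bop1 fell. Wdr12 was at 62.8, 58.4 and 59.8 CPM in WT-GS 1 to 3, against 43.1, 39.3, 38.6 and 37.5 CPM in WT-NT 1 to 4, a change of 0.62 (SE 0.080, edgeR adjusted p = 0.00142). Pes1 changed by 0.44 (SE 0.10, adjusted p = 0.0154). Bop1 was at 40.9, 43.6 and 43.2 CPM in WT-GS 1 to 3, against 70.5, 81.7, 68.6 and 51.1 CPM in WT-NT 1 to 4. Every starved library lay below every library in normal medium, and the change was -0.66 (SE 0.16, edgeR adjusted p = 0.0171); without WT-GS 1 it was -0.65 and not called (adjusted p = 0.0647). Exons of Bop1 overlap those of Mroh1 on the opposite strand in the GENCODE vM21 annotation, and the library kit (Illumina TruSeq RNA v2) does not mark strand, so reads from the overlap cannot be told apart. Mroh1 moved the other way, at 178 CPM in WT-GS and 116 CPM in WT-NT, a rise of 0.64 (SE 0.11).

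In the large-subunit group, 7 of 11 rose and none fell, with a median change of 0.49. Noc3l, which works in early large-subunit particles in yeast, was at 58.4, 57.8 and 56.6 CPM in WT-GS 1 to 3, against 35.6, 27.9, 32.7 and 36.9 CPM in WT-NT 1 to 4. The starved libraries lay close together and far above the rest, a change of 0.81 (SE 0.10, edgeR adjusted p = 0.00126). The GTPase Gtpbp4 rose by 0.58 (SE 0.099), Nsa2 by 0.56 (SE 0.096), and Gnl3 (nucleostemin, a nucleolar GTPase first known from stem cells) by 0.53 (SE 0.10). Gtpbp4 and Nsa2 have 7 and 1 named pseudogenes in the annotation, so the split of their reads is uncertain. The rRNA methyltransferase Nop2 rose by 0.49 (SE 0.11), Rrs1, which helps to bring in the small 5S rRNA, by 0.49 (SE 0.12), and the helicase Ddx18 by 0.41 (SE 0.10). Nop16 and Nip7 changed by 0.26 and 0.25, and Ebna1bp2 and Rrp1b by 0.025 and -0.023, none called.

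Among the 6 nucleolar proteins of broader function, only Npm1 was called. Npm1 (nucleophosmin) is an abundant chaperone of the nucleolus. It was at 1818, 1571 and 1726 CPM in WT-GS 1 to 3, against 1006, 990.0, 913 and 724 CPM in WT-NT 1 to 4. Every starved library lay far above every library in normal medium, and the rise of 0.92 (SE 0.14, edgeR adjusted p = 0.00272) was the largest of the 50. Ncl (nucleolin) was at 1049, 1007 and 998 CPM in WT-GS 1 to 3, against 971, 911, 910.2 and 618 CPM in WT-NT 1 to 4, a change of 0.27 (SE 0.16). Ncl did not overlap between the groups, but WT-NT 4 stood far below its group, and the test did not call it. Mybbp1a, a nucleolar partner of Myb and of SirT7, was at 369, 360.1 and 393 CPM in WT-GS 1 to 3, against 322, 306, 307 and 222 CPM in WT-NT 1 to 4, a change of 0.38 (SE 0.14, edgeR adjusted p = 0.0686). Without WT-NT 4 the change of Mybbp1a was 0.25 and called. The helicase Ddx21 was at 252, 239.9 and 255 CPM in WT-GS 1 to 3, against 243, 203, 233 and 175 CPM in WT-NT 1 to 4, overlapping at WT-NT 1, and changed by 0.24 (SE 0.12). The snoRNP chaperone Nolc1 and the zinc-finger protein Lyar changed by 0.25 and -0.0070, not called.

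**Figure D2:**
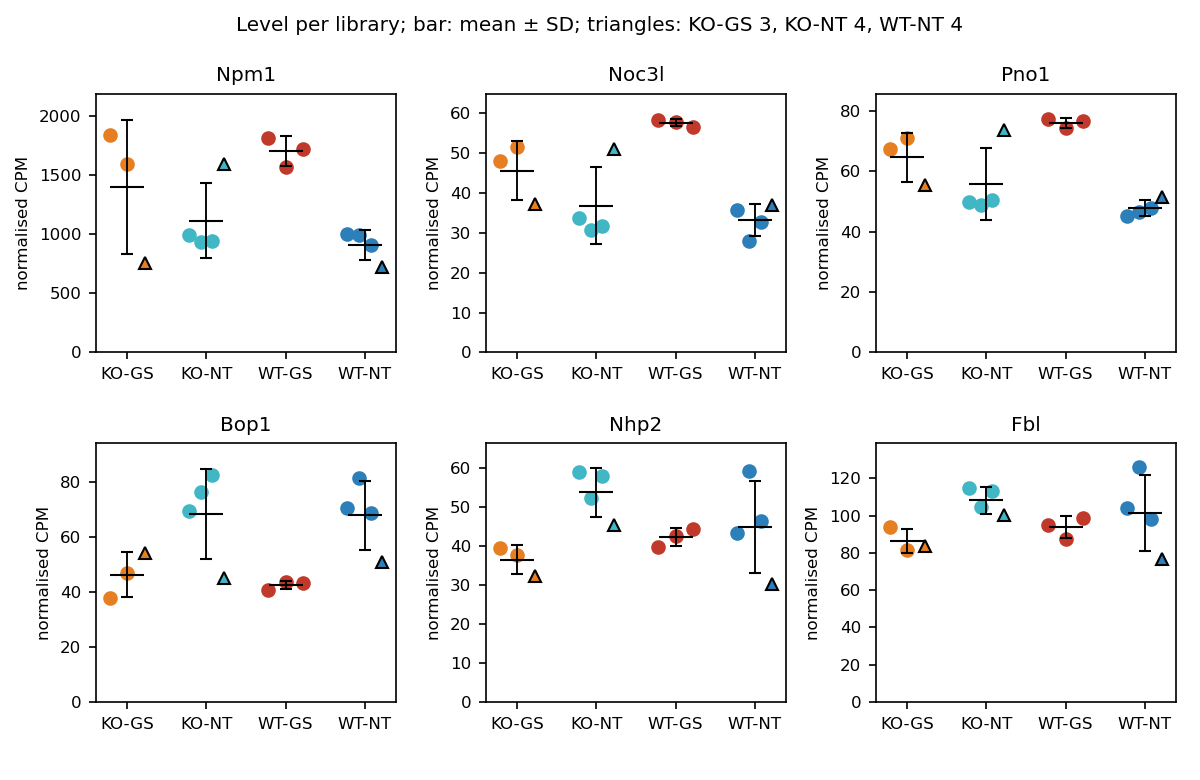
Normalised CPM of 6 assembly factors in each library (points), with the mean and SD of each group (bars); triangles mark the libraries KO-GS 3, KO-NT 4 and WT-NT 4. In Npm1, Noc3l and Pno1 the WT-GS points lie above all WT-NT points and in Bop1 below, while Fbl overlaps; in these 4 genes that differ, KO-NT 4 lies with the starved libraries.

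Of the 22 called genes, 11 were called in all 18 fits tried, which changed the tool, the normalization, the filter or the libraries: Utp15, Utp18, Ddx52, Pno1, Ltv1, Wdr12, Noc3l, Gtpbp4, Nsa2, Gnl3 and Npm1. The count fell to 12 without WT-GS 1, where 18% of all genes were called, and to 12 without WT-GS 3, where 17.8% were. Nop14 was called in 8 of the 18 fits and in 1 of the 7 that left out a single library, without WT-NT 4. Utp20 and Nob1 were each called in 13 of the 18 and in 3 of the 7, Wdr43 and Ddx18 in 15 of the 18 and 4 of the 7, and the other called genes in 16 or more of the 18. WT-NT 4 had the lowest level of its group in 43 of the 50 genes, against 31.2% of all genes, and without it the median change was 0.17 in place of 0.29, with 22 risen and 3 fallen, where 42.4% of all genes were called. Fitted with the other groups' spread and without KO-GS 3 and KO-NT 4, 25 were called in wild-type cells, 24 of them higher, where 40.2% of all genes were called, 20.7% as higher and 19.5% as lower.

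The rise was also seen in other assembly factors. Of 92 further assembly factors, listed with earlier results of these data known, 39 rose in WT-GS and none fell, with a median change of 0.26; the share of all genes that rose was 17.2%. Of the small-subunit ones 17 of 42 rose, among them the processome scaffold Utp14a by 0.87 (SE 0.097), Esf1 by 0.68 (SE 0.12), Krr1 by 0.51 (SE 0.085) and Nol7 by 0.49 (SE 0.077). Of the large-subunit ones 22 of 50 rose, among them Tma16 by 0.94 (SE 0.12), Mak16 by 0.77 (SE 0.068) and Rsl24d1 by 0.55 (SE 0.084). Gtpbp10, counted among the 22 as listed, rose by 0.63 (SE 0.085), but whether it acts in the nucleolus was not examined. The RNA exosome, the nuclease that trims rRNA ends, had 3 of 14 genes risen (Exosc9 by 0.47, Exosc1 by 0.30 and Dis3 by 0.29). This count is near the 17.2% of all genes, and the exosome median was -0.14, so the exosome did not share the rise as a set. In the RNA polymerase I machinery 4 of 14 genes rose and 1 fell, where 17.2% of all genes rose and 15.4% fell. The risen genes were Twistnb by 0.77 (SE 0.096), Taf1d by 0.74, Polr1c by 0.45 and Polr1d by 0.38. Ubtf, the factor that opens rRNA genes, fell by 0.66 (SE 0.18, edgeR adjusted p = 0.0265).

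Myc itself was at 92.9, 93.9 and 92.1 CPM in WT-GS 1 to 3, against 67.9, 77.0, 88.5 and 34.9 CPM in WT-NT 1 to 4. The groups did not overlap, but WT-NT 4 had the lowest Myc of all 14 libraries, and the change of 0.48 (SE 0.28) was not called (edgeR adjusted p = 0.21). Of 8 genes of the Myc family and its partners, 3 rose and 1 fell, where 17.2% of all genes rose and 15.4% fell. Max, the partner Myc needs to bind DNA, rose by 0.39 (SE 0.077). Mxi1 and Mxd1, which compete with Myc for Max, rose by 0.45 (SE 0.10) and 0.57 (SE 0.15), and Mxd4 fell by 0.64 (SE 0.11).

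Markers of dividing cells moved against the assembly factors. Their 8 genes all fell in WT-GS, and their sum was 381 to 480 CPM in WT-GS, against 760.5 to 1115 CPM in WT-NT. Of the fibroblast markers 7 of 10 fell, of the macrophage markers 2 of 14 fell, and none of either rose; of 5 skeletal muscle markers tested, 1 rose and 2 fell. Their part in the result was not tested.

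Starvation without SirT7 gave no call with the libraries as labelled. Once the 2 libraries on the other medium's side were left out, 16 factors rose and 10 fell, led by Npm1 and Bop1 as in wild-type cells. As labelled, none of the 50 genes was called in KO-GS against KO-NT, and 0% of all genes were, by edgeR; 12 of the 50 and 2267 of all genes had an unadjusted p under 0.05. DESeq2 called 4 of the 50, all lower, where it called 4% of all genes (179 higher and 447 lower), and limma-voom called none of the 50. The median change was -0.073. Every KO-GS library lay below every KO-NT library in 10 genes (7.09% of all genes), which were Fbl, Nop56, Gar1, Nhp2, Rrp9, Noc4l, Emg1, Bysl, Ebna1bp2 and Rrp1b. In none of the 50 did every KO-GS library lie above (5.44% of all genes).

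KO-GS 3 and KO-NT 4 stood with the other medium in most of the factors that had answered starvation in wild-type cells. Of those 22 genes, KO-NT 4 was nearer the WT-GS mean than the WT-NT mean in 22, and KO-GS 3 was nearer the WT-NT mean in 20. Over all 50, KO-NT 4 was the highest of its group in 26 and the lowest in 15, where it was the lowest in 40.6% of all genes. No share over all genes is given for the count of highest levels or for nearness to the wild-type means. Npm1 shows both libraries on the other medium's side: its levels were 1840.0, 1598 and 758 CPM in KO-GS 1 to 3, against 992, 934, 942 and 1592 CPM in KO-NT 1 to 4. Noc3l was at 48.0, 51.5 and 37.2 CPM in KO-GS 1 to 3, against 33.7, 30.7, 31.8 and 51.1 CPM in KO-NT 1 to 4. In both genes the library labelled KO-GS 3 lay far below its group and KO-NT 4 far above its own.

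Without the libraries labelled KO-GS 3 and KO-NT 4, 26 of the 50 genes were called, 16 higher and 10 lower, where 38.4% of all genes were called, 20.1% as higher and 18.3% as lower. The median change was 0.062, against 0.013 over all genes. KO-GS lay wholly above KO-NT in 22 of the 50 (32% of all genes) and wholly below in 14 (32.4%). These libraries were left out for where they lay along starvation, so the calls are partly set by that choice. Leaving out KO-NT 4 alone gave 5 calls, 1 higher and 4 lower, where 13.4% of all genes were called, and leaving out KO-GS 3 alone gave 0, against 0.0128% of all genes. The values that follow are of KO-GS 1 and 2 against KO-NT 1 to 3. In this fit all 8 markers of dividing cells fell, with sums of 379 and 574 CPM in KO-GS and of 1111, 1027 and 1088 CPM in KO-NT. Of the 10 fibroblast markers 7 fell, with sums of 25356 and 26087 CPM in KO-GS and of 43112, 51184 and 48055 CPM in KO-NT. As labelled, the sums for dividing cells were 808 CPM in KO-GS 3 and 425 CPM in KO-NT 4; the markers' part in the result was not tested.

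The factors that rose included 6 of the SSU processome, 2 late small-subunit factors, Wdr12 and Pes1 of PeBoW, 5 large-subunit factors and Npm1. Npm1 rose by 0.86 (SE 0.100, edgeR adjusted p = 0.0036) and Noc3l by 0.65 (SE 0.074, adjusted p = 0.00348). Ddx52 was at 82.3 and 70.2 CPM in KO-GS, against 55.1, 51.2 and 51.8 CPM in KO-NT, and rose by 0.55 (SE 0.091). Wdr12 was at 58.4 and 55.3 CPM in KO-GS, against 40.96, 37.9 and 40.03 CPM in KO-NT, and rose by 0.53 (SE 0.069). In each of these the starved libraries lay clear of the rest. Pno1 was at 67.4 and 71.0 CPM in KO-GS, against 49.9, 48.8 and 50.6 CPM in KO-NT, and rose by 0.49 (SE 0.058). Nsa2 was at 186 and 161 CPM in KO-GS, against 132, 120.0 and 124 CPM in KO-NT, and rose by 0.48 (SE 0.091).

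Of the 50 genes 10 fell, a share close to the 18.3% of all genes called lower in this fit. The falls took in the snoRNP proteins Fbl, Gar1 and Nhp2, which had no call in wild-type cells. Without WT-NT 4 their changes in wild-type cells were -0.24, -0.18 and -0.25, also without a call. The difference between the genotypes was not called for any factor. Bop1 was at 37.9 and 46.9 CPM in KO-GS, against 69.5, 76.4 and 82.8 CPM in KO-NT, a fall of 0.83 (SE 0.12, edgeR adjusted p = 0.00676). Noc4l was at 24.6 and 26.1 CPM in KO-GS, against 35.3, 37.4 and 38.9 CPM in KO-NT, a fall of 0.54 (SE 0.071, adjusted p = 0.00491). Nhp2 of the pseudouridine-making snoRNPs was at 39.5 and 37.8 CPM in KO-GS, against 59.2, 52.5 and 58.1 CPM in KO-NT, a fall of 0.54 (SE 0.080, adjusted p = 0.00689). None of these overlapped between the groups. Fbl was at 93.7 and 81.6 CPM in KO-GS, against 115, 104 and 113 CPM in KO-NT, a fall of 0.32 (SE 0.089, edgeR adjusted p = 0.0395). Lyar was at 27.4 and 32.9 CPM in KO-GS, against 40.8, 38.4 and 39.97 CPM in KO-NT, a fall of 0.38 (SE 0.096). Emg1 was at 44.9 and 41.6 CPM in KO-GS, against 54.6, 54.7 and 57.9 CPM in KO-NT, a fall of 0.35 (SE 0.069). The other falls, in Gar1, Dcaf13, Rrp1b and Ebna1bp2, lay between 0.24 and 0.32.

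The remaining SirT7-linked nucleolar proteins were not called. Rrp9 was at 35.1 and 32.6 CPM in KO-GS, against 37.3, 40.4 and 43.7 CPM in KO-NT, a change of -0.24 (SE 0.089, edgeR adjusted p = 0.0836). Ddx21 was at 229 and 258 CPM in KO-GS, against 261, 242 and 252 CPM in KO-NT, a change of -0.034. Mybbp1a was at 345 and 336 CPM in KO-GS, against 323, 316 and 333 CPM in KO-NT, a change of 0.086. Ncl was at 985 and 986 CPM in KO-GS, against 1003, 893 and 925 CPM in KO-NT, a change of 0.082. Rrp9 and Mybbp1a kept the groups apart, low and high in KO-GS, while Ddx21 and Ncl overlapped.

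In the fit without the same 2 libraries, 20.1% of all genes were called higher and 18.3% lower. Of the 92 further assembly factors, 26 rose in KO-GS and 8 fell. Among those that rose were the processome scaffold Utp14a by 0.89, Esf1 by 0.43 and the large-subunit factors Nol8 by 0.74 and Mak16 by 0.66. Among those that fell were Ppan, a large-subunit factor, by 1.11 (SE 0.091, edgeR adjusted p = 0.002), Eif6, which keeps the large subunit from joining too early, by 0.59, and Tbl3, the counterpart of yeast Utp13, by 0.56. Of the 14 exosome genes 1 rose (Exosc9 by 0.35) and 6 fell, among them Exosc4 by 0.68 and Exosc8 by 0.56. Of the 14 genes of the RNA polymerase I machinery 3 rose and 4 fell, among them Ubtf by 0.77 and Znrd1 by 0.66.

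**Figure D3:**
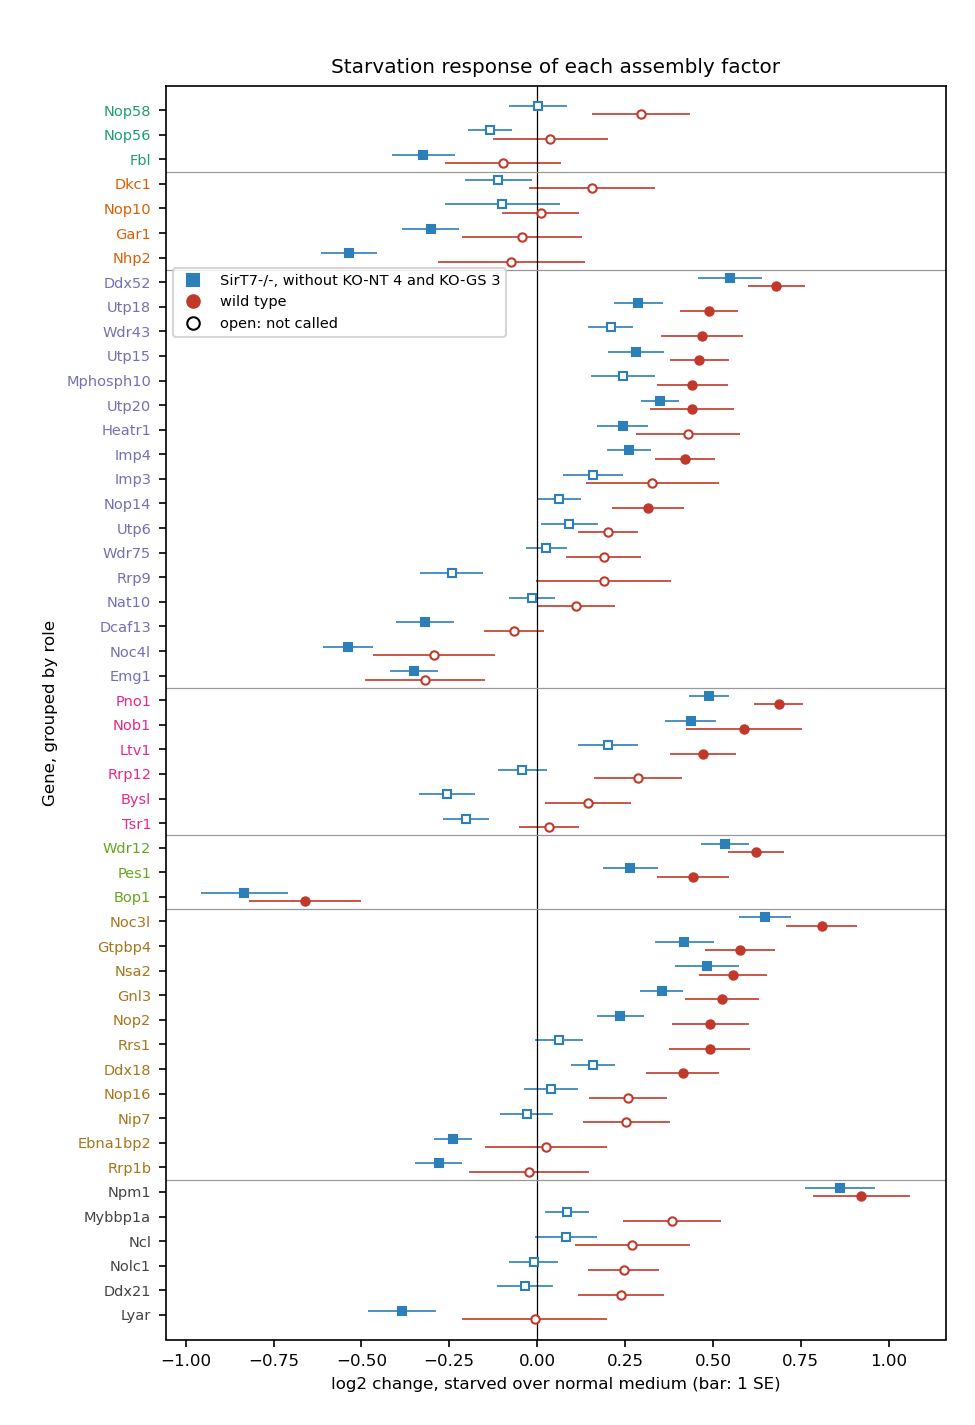
Log2 change of each factor in starved over normal medium, with 1 SE, for SirT7-/- cells without KO-NT 4 and KO-GS 3 (squares, upper) and wild-type cells (circles, lower); filled symbols were called at an edgeR adjusted p under 0.05. Each square lies to the left of its circle, and Npm1, Noc3l and Ddx52 are at the right and Bop1 at the left in both genotypes.

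SirT7-/- and wild-type cells shared 16 called factors, all in the same direction, which was 61.5% of those called in SirT7-/- cells without the 2 libraries and 72.7% of those called in wild-type cells. Over all genes the shares were 63.3% and 74.5%, close to those of the factors. The changes ran in nearly the same order over the 50 factors (Pearson r = 0.961, Spearman rho = 0.958), against 0.68 and 0.796 over all 15666 genes. The 2 comparisons share no library, but genes are not independent replicates. Called in SirT7-/- cells and not in wild-type cells were Heatr1, the counterpart of yeast Utp10, which rose by 0.24 (SE 0.073), and 9 of the 10 that fell. Heatr1 was also higher in starved wild-type cells, at 101 to 108 CPM in WT-GS against 64.0 to 91.7 CPM in WT-NT. Its wild-type change was the larger one, but with WT-NT widely spread it was not called. Called in wild-type cells and not in SirT7-/- cells were Mphosph10, Ddx18, Nop14, Wdr43, Rrs1 and Ltv1. 
The change in SirT7-/- cells lay below the change in wild-type cells in all 50 factors without KO-GS 3 and KO-NT 4, against 49.8% of all genes. No single difference passed the test. With all libraries as labelled, the interaction (the SirT7-/- response minus the wild-type response) called 0 of the 50 and 0% of all genes by edgeR, with 17 of the 50 and 950 genes at an unadjusted p under 0.05. DESeq2 called 0 of the 50 and 5 genes, and limma-voom 0 of the 50. The median difference was -0.36 as labelled and -0.19 without KO-GS 3 and KO-NT 4. Rrs1 had the smallest p in both fits, with a difference of -0.68 (SE 0.21, edgeR adjusted p = 0.68) as labelled and -0.41 (SE 0.16, adjusted p = 1) without them. Without WT-NT 4 as well, the median difference was -0.12 and 48 of the 50 were negative, where 51% of all genes were positive.

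**Figure D4:**
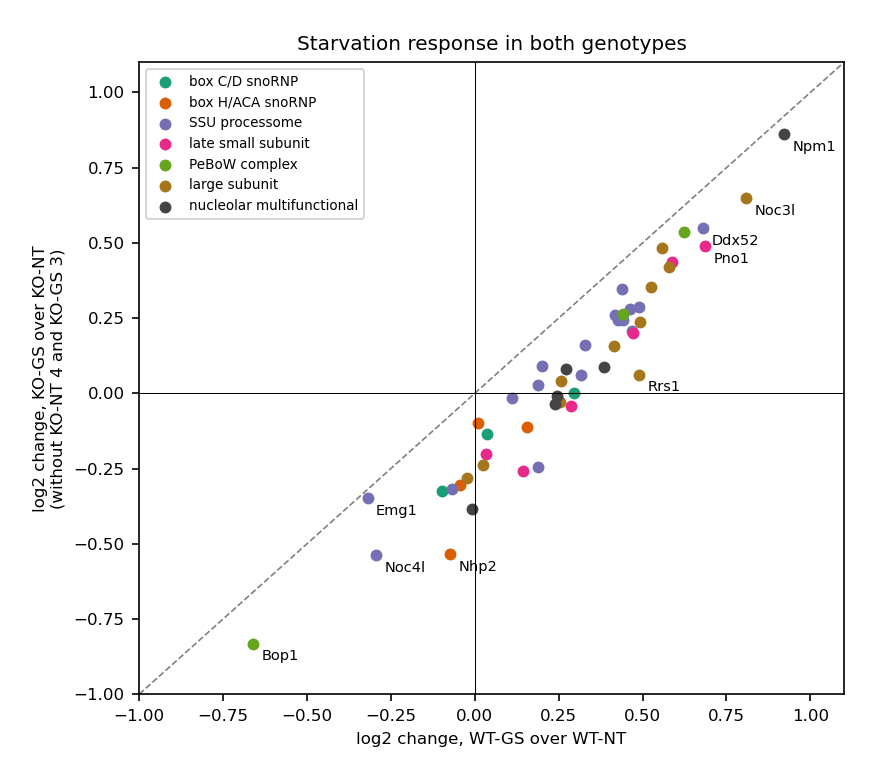
Log2 change of each factor in SirT7-/- cells without KO-NT 4 and KO-GS 3 (vertical axis) against its log2 change in wild-type cells (horizontal axis), coloured by role; the dashed line marks equal change. All 50 points lie below the line, in nearly the same order from Bop1 (-0.83 in SirT7-/- and -0.66 in wild-type cells) to Npm1 (0.86 and 0.92 in the same order).

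Loss of SirT7 in normal medium left the assembly factors without a call. In KO-NT against WT-NT, 0 of the 50 were called by edgeR, DESeq2 or limma-voom, where edgeR called 0.00638% of all genes; 3 of the 50 and 590 genes had an unadjusted p under 0.05. The changes ran from -0.13 in Nop10 to 0.41 in Rrs1, with 47 of 50 above 0, against 50.6% of all genes, and a median of 0.14. KO-NT lay wholly above WT-NT in Utp18, Rrs1, Bysl, Rrp12 and Ddx52, against 1.46% of all genes, and wholly below in none, against 1.57%. Rrs1 was at 39.9, 39.0, 42.2 and 54.3 CPM in KO-NT 1 to 4, against 31.3, 37.5, 33.7 and 28.7 CPM in WT-NT 1 to 4, a change of 0.41 (SE 0.14, edgeR adjusted p = 1). Without KO-NT 4 the changes ran from -0.085 in Nop10 to 0.33 in Nhp2, and Rrs1 changed by 0.30. The median was then 0.11, and edgeR called 0 of the 50 and 0.0319% of all genes (0.0128% as higher and 0.0191% as lower). Of the 50, 5 lay wholly above WT-NT and 0 below, against 4.67% and 4.44% of all genes. Without WT-NT 4 as well the median was 0.038, with 30 of the 50 above 0 and 20 below, where 46.6% of all genes were above 0.

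The SirT7-linked proteins overlapped between the genotypes in normal medium. Fbl was at 115, 104, 113 and 100.1 CPM in KO-NT 1 to 4, against 104, 126, 98.2 and 76.5 CPM in WT-NT 1 to 4, a change of 0.090 (SE 0.14). Rrp9 was at 37.3, 40.4, 43.7 and 46.4 CPM in KO-NT 1 to 4, against 32.6, 42.4, 33.0 and 22.8 CPM in WT-NT 1 to 4, a change of 0.36 (SE 0.18). WT-NT 2 was the only WT-NT library within the KO-NT range of Rrp9. Npm1 changed by 0.29 (SE 0.21) as labelled and by 0.074 without KO-NT 4, which lay far above its group. Ddx21, Mybbp1a and Ncl changed by 0.21, 0.23 and 0.14.

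Loss of SirT7 in starved cells also gave no call. In KO-GS against WT-GS, 0 of the 50 were called by edgeR, DESeq2 or limma-voom, where edgeR called 0.00638% of all genes; 2 of the 50 and 526 genes had an unadjusted p under 0.05. The changes ran from -0.34 in Noc3l to 0.11 in Bop1, with 48 of 50 below 0 and a median of -0.21. Over all genes 51.5% were above 0, and the median was 0.0089. Without KO-GS 3 the median of the 50 was -0.091 and 45 were below 0, where again 51.5% of all genes were above 0. The changes then ran from -0.21 in Noc3l to 0.044 in Imp3. In that fit edgeR called 0 of the 50 and 0.0255% of all genes (0.00638% as higher and 0.0191% as lower). In 18 factors every KO-GS library lay below every WT-GS library, against 5.99% of all genes, and in none did it lie above (5.02%). Without KO-GS 3 the count below was 18 again, against 9.45%, and the count above 0, against 7.48%. They included the early and late small-subunit factors Mphosph10, Wdr43, Utp15, Nop14, Pno1 and Ltv1 and the large-subunit factors Noc3l, Ddx18, Nop16 and Gnl3.

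Noc3l had the lowest change in starved cells. It was at 48.0, 51.5 and 37.2 CPM in KO-GS 1 to 3, against 58.4, 57.8 and 56.6 CPM in WT-GS 1 to 3, a change of -0.34 (SE 0.14, edgeR adjusted p = 0.811) and of -0.21 (SE 0.067, adjusted p = 1) without KO-GS 3. Pno1 was at 67.4, 71.0 and 55.4 CPM in KO-GS, against 77.3, 74.2 and 76.6 CPM in WT-GS. In both genes KO-GS 1 and 2 lay below all WT-GS libraries and KO-GS 3 lower still. Fbl was at 93.7, 81.6 and 83.7 CPM in KO-GS, against 95.1, 87.5 and 98.7 CPM in WT-GS, overlapping at KO-GS 1, and changed by -0.12 (SE 0.091). Npm1 changed by -0.29 (SE 0.33) with KO-GS 3 and by 0.018 without it. Rrp9, Ncl, Mybbp1a and Ddx21 changed by -0.23, -0.21, -0.29 and -0.13, and without KO-GS 3 by -0.12, -0.041, -0.13 and -0.028.

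The libraries of a group differed in the level of these factors taken as a whole. The median of the 50 over the WT-NT mean was 0.17, 0.24 and -0.11 in KO-GS 1 to 3, 0.16, 0.073, 0.14 and 0.23 in KO-NT 1 to 4, 0.31, 0.27 and 0.30 in WT-GS 1 to 3 and 0.12, 0.099, 0.035 and -0.23 in WT-NT 1 to 4. KO-GS 3 and WT-NT 4 were the 2 lowest and the WT-GS libraries the 3 highest. KO-GS 3 had the lowest level of its group in 42 of the 50 genes, against 37.2% of all genes, and WT-NT 4 the lowest of all 14 libraries in 37. The 92 further assembly factors lay alike, from -0.16 in WT-NT 4 to 0.29 in WT-GS 3, while the median of all genes stayed between -0.027 and 0.0080. Myc was at 81.2, 84.7 and 45.3 CPM in KO-GS 1 to 3 and at 88.2, 82.6, 91.2 and 107 CPM in KO-NT 1 to 4, so that its 2 lowest libraries, KO-GS 3 and WT-NT 4, were those with the lowest assembly factors. Other libraries did not keep this order. KO-NT 4 had the highest Myc of all 14, but its median lay below those of KO-GS 2 and all WT-GS libraries. In WT-NT 1 to 3 Myc went up (67.9, 77.0 and 88.5 CPM) as the median of the factors went down. The part of Myc in these levels was not tested.

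**Figure D5:**
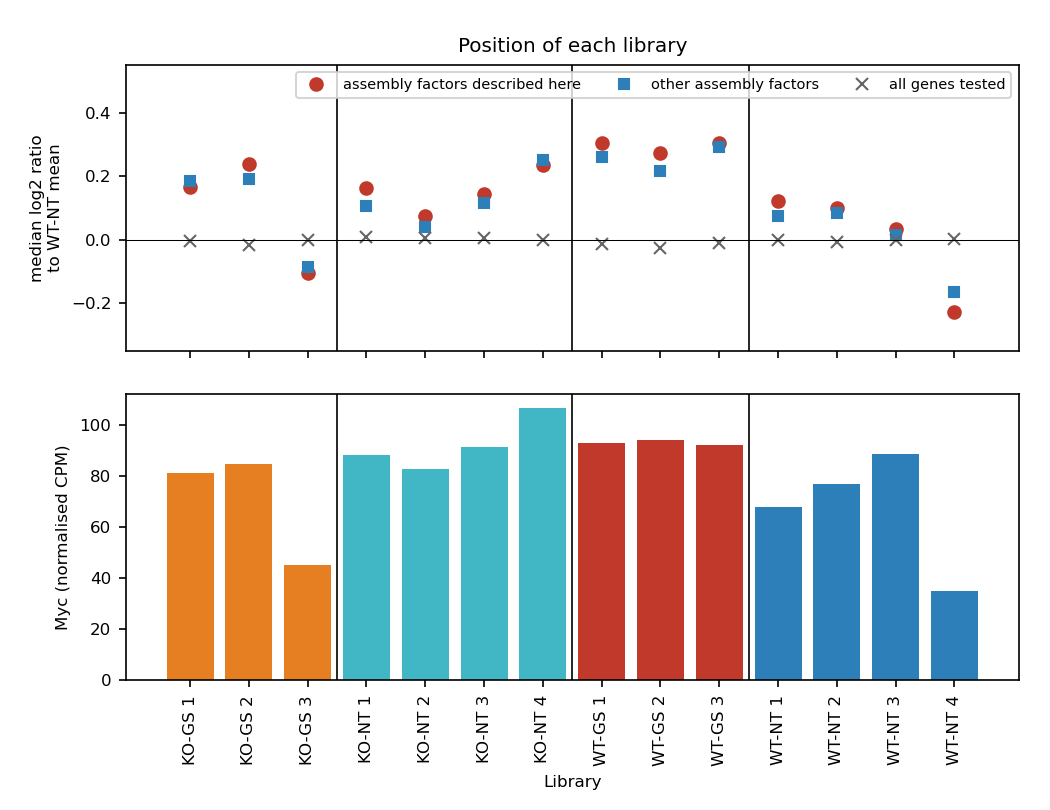
Upper panel: for each of the 14 libraries, the median log2 ratio to the WT-NT mean over the 50 assembly factors (circles), 92 other assembly factors (squares) and all genes tested (crosses); lower panel: Myc in normalised CPM (bars from 0). The circles and squares fall to -0.11 and -0.084 in KO-GS 3 and to -0.23 and -0.16 in WT-NT 4, the libraries with the lowest Myc (45.3 and 34.9 CPM). KO-NT 4 has the highest Myc (107 CPM) but not the highest circle.

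A feature that the list was not chosen on ran with the response: factors whose longest coding transcript held less G and C changed upward more. Over the 50 genes the wild-type change and the GC percentage of the transcript had a Pearson r of -0.539 (Spearman -0.533), against -0.128 (-0.222) over 14001 genes; without WT-NT 4 it was -0.568. In SirT7-/- cells without KO-GS 3 and KO-NT 4 the r was -0.61, against -0.188 over all genes. Noc3l and Npm1, which rose, have 43.68% and 42.44% GC. Bop1, which fell, has 58.25%, and Gar1 and Noc4l, not called in wild-type cells with all libraries, have 57.04% and 55.33%. Other factors went against the trend. Nop2, Rrs1 and Nob1 rose with 54.95%, 54.25% and 53.32% GC. Dkc1, Dcaf13 and Nop10 were not called with 43.62%, 44.68% and 46.53%. The r with transcript length was 0.267, against 0.0311 over all genes. These are descriptions across genes that share their libraries, and the part of GC content in the result was not tested.

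Besides Bop1, exons of 14 of the 50 genes overlap a gene on the opposite strand in the annotation. Among these partners, Lpcat3 at Emg1 and Ccnd3 at Bysl fell in WT-GS by 0.95 (SE 0.087) and 0.81 (SE 0.095), and Idh3b at Nop56 rose by 0.36 (SE 0.096). Pbrm1 at Gnl3 and Gfm2 at Nsa2 changed by 0.21 and -0.20 and were not called. The values of the paired genes are uncertain to the extent of the shared reads.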

How the data were processed

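The deposited table holds estimated counts per gene symbol, as whole numbers, for 14 libraries. Per the submitters' processing notes, the tools were DESeq2 1.18.1, StringTie 1.3.3, HISAT2 2.1.0, Trimmomatic 0.36, FastQC 0.11.3 and SAMtools, with build mm9. The annotation and strand setting are not given in the sources used here. Counting error is small at 59788270 to 91607861 counts per library, and the spread between replicates sets the precision. Every replicate pair differed by more than sampling noise.

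Counts were fitted in R 4.3.3 with edgeR 4.0.16 (TMM normalization, quasi-likelihood F-test with robust dispersion, filterByExpr with minimum count 10 and minimum total 15, Benjamini-Hochberg adjustment over 15666 genes), using the libraries of the groups compared, or all 14 for the interaction. SE was worked back from the F-test. The fit was tested on simulated counts. Alternatives were DESeq2 1.42.0, limma-voom (limma 3.58.1), RLE or library-size normalization, no filter, a stricter filter, a fit over all groups, a replicate block, and leaving out libraries; the fit without WT-NT 4 as well was added after seeing the data.

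The members, gene lists, tests and alternatives were chosen with earlier results of these data known. By rule, values in every sample are given for up to 6 largest called rises and 6 largest called falls of a comparison and for Fbl, Rrp9, Npm1, Ddx21, Mybbp1a and Ncl; those of Noc4l in wild-type cells, of Rrs1, and of Noc3l and Pno1 in the comparisons without a call were added after their values were seen. Of other assembly lists, up to 4 called genes per direction are named. Promoters and motifs came from RefSeq (GRCm38.p6), and overlaps and transcripts from GENCODE vM21; build mm9 was not converted.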

Additional observations from a re-analysis of the deposited data

Results flagged for a closer look

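In groups of 4 libraries, 10 of 100 tested sets of values had a library far from the other 3 by Dixon's criterion. Chance gives about 1 in 20 for independent sets. These sets are genes measured in the same libraries and so are not independent, and no share over all genes is given. The count therefore cannot be set against that rate. The library labelled KO-NT 4 accounted for 7 of the 10. It held 1590 CPM of Npm1, 51.1 CPM of Noc3l, 73.7 CPM of Pno1, 70.9 CPM of Nob1, 76.1 CPM of Ddx52, 168 CPM of Utp20 and 42.8 CPM of Imp3, each above KO-NT 1 to 3. WT-NT 4 held 102 CPM of Nop58 and 222 CPM of Mybbp1a, each below WT-NT 1 to 3. WT-NT 2 held 110 CPM of Utp20, below the other WT-NT libraries. In KO-NT 4, Hspa5, Derl3 and Dnajb9 were also at the level of starved libraries. Groups of 3 were not tested.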

How the results depend on the processing

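In starved wild-type cells the count of called assembly factors lay between 20 and 25 under the alternatives that kept every library or left out those standing apart, and between 12 and 25 on leaving out each library. In starved SirT7-/- cells the count of 0 became 4 with DESeq2 and 26 without libraries KO-GS 3 and KO-NT 4, and lay between 0 and 5 on leaving out each library. The counts of 0 for both genotype comparisons and the interaction stayed 0 under all alternatives. The cause of these shifts was not tested.

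Deviations of samples with the same replicate number gave mixed correlations (-0.172 to 0.511 over the pairs). In each pair of groups at least 1 was under 0.1. The deviations were taken from group means that include KO-GS 3 and KO-NT 4, so they cannot decide on pairing where a SirT7-/- group is compared. Between WT-GS and WT-NT the correlations were -0.051, 0.26 and 0.26 for replicates 1 to 3. The numbers were not taken to pair the samples. The replicate block kept only replicate numbers present in every group compared. Against starved libraries it therefore left out WT-NT 4 and KO-NT 4. With the block 23 factors were called in starved wild-type cells, 20 higher and 3 lower, where 37.4% of all genes were called. It called 0 in the other comparisons, and Ebna1bp2 changed by -0.13 in starved wild-type cells. Leaving out WT-NT 4 without the block gave 22 higher and 3 lower, so the block's own effect cannot be told apart.

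Of the values for single genes, 957 kept their direction and side of the threshold, 36 lost and 13 gained the call, and 27 changed sign, none of them called. In starved wild-type cells limma-voom gave 0.0055 for Rrp1b and 0.045 for Lyar, library size alone -0.031 for Ebna1bp2, and leaving out WT-NT 4 with the pair standing apart -0.13 for Ebna1bp2. On leaving out each library, the ranges were -0.24 to 0.037 for Fbl, -0.18 to 0.088 for Gar1, -0.25 to 0.10 for Nhp2, -0.18 to 0.059 for Rrp1b, -0.20 to 0.10 for Lyar and -0.13 to 0.13 for Ebna1bp2. In starved SirT7-/- cells, without KO-NT 4 and KO-GS 3, Mybbp1a changed by 0.086 and Ncl by 0.082; their ranges were -0.23 to 0.010 and -0.17 to 0.072. In normal medium, without WT-NT 4 as well, SirT7 loss gave -0.036 for Npm1 and -0.00060 for Ncl, and Fbl ranged from -0.017 to 0.22. In starved cells Npm1 changed by 0.018 without KO-GS 3 and ranged from -0.52 to 0.018, and its interaction was 0.045 without WT-NT 4 and the pair. At these depths the spread among 3 or 4 libraries per group, not counting error, sets the precision.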
